A study of Mus musculus with 3072 samples.

Results

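The genes described here encode the proteins of the cytosolic ribosome. They are the entries of the read-count table whose symbol follows the pattern Rps or Rpl plus a number, with at most a closing a, x or l, or Rplp0, Rplp1 or Rplp2. The pattern found 81 genes among the 29474 of the table, 31 of them named Rps for the small subunit and 50 named Rpl for the large subunit, of which 3 encode the P stalk. Reads were present for 80 of the 81, and 74 averaged at least 20 RPM (a gene's reads scaled to a common library total) over the 6 groups. Of the other 7, 4 averaged under 1 RPM. The pattern itself uses no measured value.

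Every ribosome is built from ribosomal RNA and a fixed set of ribosomal proteins, so cells need these proteins in matched amounts. Their mRNAs are short, abundant and stable, and in mammals nearly all begin with a 5′ terminal oligopyrimidine (TOP) tract, a C at the start followed by pyrimidines, through which mTORC1 and LARP1 adjust their translation together. Because the mRNAs are so abundant in the germ line, they have been copied back into the genome many times, leaving processed pseudogenes without introns. Microglia are the resident macrophages of the brain, and Cst7, the gene of the protease inhibitor cystatin F, marks their activated state around amyloid plaques.

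The study sorted single CD11b+/DAPI- cells from the cortex and hippocampus of male mice into plates and made cDNA with a modified SmartSeq2 protocol, which reads whole transcripts and carries no molecular identifiers. The 6 groups used here were APP/PS1-ApoeKO cortex (9.87% of the 1713 cells, 18 months), APP/PS1-ApoeKO hippocampus (18.7%, 18 months), APP/PS1 cortex (18.2%, 17 months), APP/PS1 hippocampus (15.9%, 17 months), C57BL/6-ApoeKO cortex (18.3%, 18 months) and C57BL/6 cortex (19.03%, 18 months). APP/PS1 is the APPswe/PS1dE9 transgenic line, a model of amyloid deposition, and ApoeKO animals carry a null allele of Apoe, the lipid carrier gene, obtained for APP/PS1 by crossing with C57BL/6 Apoe-null breeders. The APP/PS1 groups labelled 18 months were not analysed here, so each APP/PS1-ApoeKO group was set against a control 1 month younger and from other sequencing lanes. The C57BL/6-ApoeKO and C57BL/6 groups shared both their lanes, and so did the APP/PS1 cortex and hippocampus. Because no label names an animal, a group counts as 1 sample, cells are not replicates of it, and a difference between groups has no replicate check. Poisson intervals below are at 95% and cover counting error only.

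Apoe was at 0.0669, 0.745 and 2.96 RPM in the APP/PS1-ApoeKO cortex, APP/PS1-ApoeKO hippocampus and C57BL/6-ApoeKO cortex, against 13406 and 11919 RPM in the cortex and hippocampus of APP/PS1 and 485 RPM in the C57BL/6 cortex, so the labelled knockouts lay below all groups with Apoe. The summed reads per group lay between 74767907 and 241536311, with a median of 442917 to 765704 reads and 2105 to 2265 detected genes per cell. All 10 homeostatic microglia markers had reads in every group, summing to 48788 to 61354 RPM. The T or NK cell markers summed to at most 0.0134 RPM and the neutrophil markers to at most 0.596 RPM, while the oligodendrocyte markers summed to 35.5 to 69.2 RPM with 1 to 3 of 5 at 0. The B cell list summed to 389.9 to 636 RPM with 2 or 3 of its 4 genes at 0, and Ighm, the immunoglobulin M heavy chain gene, was its 1 gene with enough reads for the tests below. No pair of cells had identical counts (0 pairs).

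The windows below show how little separates some of these genes from their pseudogenes. They are given because Rpl26 had the largest range over the groups and because the pseudogenes shown were lower in each Apoe knockout group than in its control. In the GENCODE M21 transcripts (GRCm38), the coding sequence of Rpl26, a large subunit protein near the exit tunnel (gene at chr11:68901583-68906989, plus strand, 4 exons), was aligned with Gm15772, a processed pseudogene at chr5:3236431-3236868. All 435 coding bases aligned without gaps and 2 differed, C177T and T288C, where the member's base comes first, then the position counted from 1 at the start codon, then the base of the pseudogene. Capitals mark the differing base, shown with 20 spliced coding bases on either side.
Rpl26 around C177T: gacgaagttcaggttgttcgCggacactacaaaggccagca
Gm15772 around C177T: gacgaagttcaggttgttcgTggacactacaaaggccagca
Rpl26 around T288C: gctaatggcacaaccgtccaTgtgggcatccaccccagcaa
Gm15772 around T288C: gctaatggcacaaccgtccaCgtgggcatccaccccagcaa

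Rps7, a small subunit protein (chr12:28630854-28635953, minus strand), and Gm6472, a transcribed processed pseudogene at chrX:152909505-152910155, differed at 3 of 582 coding bases, which were T26G, G48A and G123T. Rplp1, one of the acidic proteins of the P stalk that recruits elongation factors (chr9:61913284-61914542, minus strand), and Gm11942, a processed pseudogene at chr4:32964888-32965232, differed at 9 coding bases. The window around C255T holds 4 of the 9, C245T, A246G, C255T and C258T.
Rplp1 around C255T: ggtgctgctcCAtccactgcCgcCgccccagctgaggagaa
Gm11942 around C255T: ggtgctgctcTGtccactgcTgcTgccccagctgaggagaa

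Such copies were the rule among the members. By alignment of each coding sequence to all GENCODE transcripts, 74 of the 81 had at least 1 other gene with at least 95% identity over at least 80% of the coding length. The copies numbered 575 genes, 547 of them pseudogenes. The count of a member with copies is uncertain to the extent that reads fit several genes, and the sources used here do not give how such reads were counted. Rps3, Rps4l, Rps27l, Rpl3l and Rpl39l were among the 7 members with no such copy. Members with 5 or more copies had a median level of 237.6 RPM per kilobase of coding sequence (42 of the 80 members with reads), those with 1 to 4 copies 239.4 (31 members), and those with none 185.3 (7 members).

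The start windows of the genes were read from the RefSeq promoter table (GRCm38.p6), which matched 59 of the 81 members. A start with C and at least 4 further pyrimidines (C or T), the letter pattern of a TOP start, was found in 12 of the 59 members (20.3%), against 2.49% of all 27025 promoters in the table. A run of at least 8 pyrimidines within 15 bases of the start, on the gene's strand, was found in 24 of the 59 (40.7%), against 11.9% of all promoters. Where a listed start lies a few bases away from the start used in these cells, the first pattern is missed, so a member without it may still have a TOP tract. Shown are 15 bases before and 15 from the listed start, with the longest pyrimidine run in capitals, for Rps27 (chr3:90213634-90213663, minus strand), the member with such a start and the highest level, for Rpl14 (chr9:120571502-120571531, plus strand), the member with the largest Cst7 estimate below, and for Rps6 (chr4:86857353-86857382, minus strand), the small subunit protein phosphorylated by S6 kinase.
Rps27: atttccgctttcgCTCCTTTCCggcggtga
Rpl14: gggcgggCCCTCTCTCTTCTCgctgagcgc
Rps6: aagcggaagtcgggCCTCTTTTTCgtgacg
The 12 members with this start had a median of 200.8 RPM per kilobase, between 67.7 and 582, and the 42 others with at least 20 RPM had a median of 255.1, between 96.9 and 1302. The levels of these classes overlapped.

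The ribosomal protein genes together took about 1% of all reads in each group. Their share was 1.03% in the APP/PS1-ApoeKO cortex and 1.00% in the APP/PS1-ApoeKO hippocampus, against 1.23% in the APP/PS1 cortex and 1.14% in the APP/PS1 hippocampus. It was 1.21% in the C57BL/6-ApoeKO cortex, against 1.15% in the C57BL/6 cortex. Over single cells the share spread much more widely than over groups. The lowest, median and highest cell had 0.190%, 0.979% and 3.54% in the APP/PS1-ApoeKO cortex, and 0.231%, 1.14% and 4.22% in the APP/PS1 cortex. In the hippocampus these were 0.284%, 0.941% and 2.498% in APP/PS1-ApoeKO cells, and 0.161%, 1.02% and 4.03% in APP/PS1 cells. In C57BL/6-ApoeKO cortex cells they were 0.337%, 1.13% and 6.05%, and in C57BL/6 cortex cells 0.196%, 1.08% and 4.49%. The ranges of all groups overlapped.

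Ribosomal RNA reads moved in part with these shares. The 3 entries named Rn18s, Rn45s and Rn28s were not found in the table, and Rn18s-rs5 stood in for them. The median cell had 6.35% of its reads there in the APP/PS1-ApoeKO cortex and 9.50% in the APP/PS1-ApoeKO hippocampus, against 11.8% in the APP/PS1 cortex and 10.9% in the APP/PS1 hippocampus. It was 8.62% in the C57BL/6-ApoeKO cortex and 8.39% in the C57BL/6 cortex. The 2 APP/PS1-ApoeKO groups therefore had both the lowest ribosomal protein shares and, in the cortex, the lowest ribosomal RNA share. Counted over reads outside ribosomal RNA, the ribosomal protein share was 1.11% in the APP/PS1-ApoeKO cortex and 1.11% in the APP/PS1-ApoeKO hippocampus, against 1.40% in the APP/PS1 cortex and 1.28% in the APP/PS1 hippocampus. It was 1.32% in the C57BL/6-ApoeKO cortex, against 1.26% in the C57BL/6 cortex. Within a group the 2 shares were weakly related by rank over cells that share a library preparation. Spearman correlations lay between -0.24 in the C57BL/6 cortex and 0.31 in the APP/PS1-ApoeKO cortex. The Pearson correlation was 0.64 in the APP/PS1-ApoeKO cortex. In the other groups it lay between -0.22 (C57BL/6 cortex) and 0.10 (APP/PS1-ApoeKO hippocampus).

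**Figure D1:**
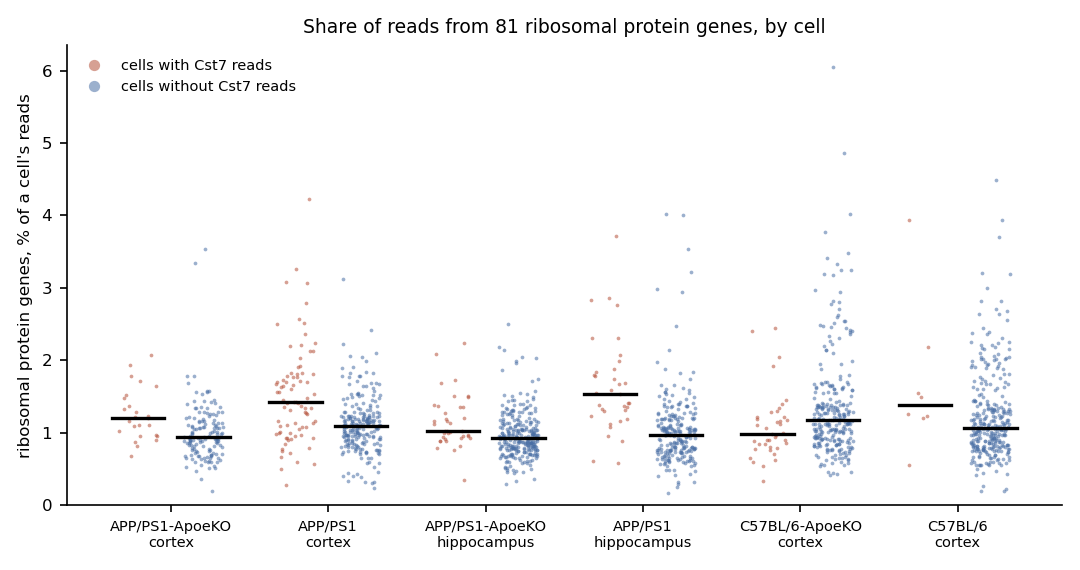
Percent of a cell's reads from the 81 ribosomal protein genes (y axis) in the 6 groups (x axis), with 1 point per cell, cells with Cst7 reads left of cells without, and a black bar at each median. In 5 groups the median of the cells with Cst7 reads lies above that of the cells without, and in the C57BL/6-ApoeKO cortex it lies below (0.975% against 1.17%).

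Cells with little or much ribosomal RNA stood apart in some groups. Among cells without Cst7 reads, the 40 C57BL/6 cortex cells with under 5% ribosomal RNA reads gave 1.81% to the ribosomal protein genes, against 1.07% in those with 5% to 15%. The corresponding values were 1.82% (38 cells) against 1.14% in the C57BL/6-ApoeKO cortex and 2.71% (9 cells) against 1.00% in the APP/PS1 hippocampus. In both APP/PS1-ApoeKO groups the order was the opposite, with 0.830% (19 cells) against 1.00% in the cortex and 0.614% (3 cells) against 0.980% in the hippocampus. The low cells of the C57BL/6 cortex were shallower, with a median of 1664.5 detected genes against 2376, and their homeostatic markers summed to 46418 RPM against 61517 RPM. Their oligodendrocyte markers summed to 150 RPM against 44.9 RPM. Cells without Cst7 reads but over 15% ribosomal RNA reads gave 1.78% (16 cells) in the C57BL/6-ApoeKO cortex. This share was 1.25% (19) in the C57BL/6 cortex, 3.42% (2) in the APP/PS1-ApoeKO cortex and 1.27% (7) in the APP/PS1-ApoeKO hippocampus. All of these lay above the shares at 5% to 15%. In the APP/PS1 hippocampus it was 0.957% (26), and in the APP/PS1 cortex 1.12% (33), against 1.12% at 5% to 15% there. The part of depth, RNA quality or other cells in these shares was not tested.

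Compared per kilobase of coding sequence, the levels of the members differed far more from gene to gene than from group to group. Rpl41, a very short basic peptide of the large subunit with 75 coding bases, had the highest mean level, 1302 RPM per kilobase. It was followed by Rps29 of the small subunit at 945, Rplp1 at 920, Rps3 at 696, Rps9 at 691, Rps14 at 665, Rpl10 at 604 and Rps27 at 582 RPM per kilobase. Rps3 forms part of the mRNA entry site and Rpl10 joins the large subunit last in its assembly. Among members with at least 20 RPM, the 3 P stalk genes had a median of 463 RPM per kilobase, the 31 small subunit genes 274.4 and the 40 other large subunit genes 240. A coding length understates the transcript of a gene as short as Rpl41, so its place in this order depends on leaving out the untranslated parts.

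Reads from these genes were found in most cells. With every cell thinned to 100000 reads (8 cells were too shallow), the median member was detected in 71.01% of APP/PS1-ApoeKO cortex cells and 75.2% of APP/PS1-ApoeKO hippocampus cells, against 79.4% of APP/PS1 cortex cells and 73.9% of APP/PS1 hippocampus cells. It was detected in 75.97% of C57BL/6-ApoeKO cortex cells, against 74.5% of C57BL/6 cortex cells. Without thinning these medians were 73.96% and 79.1% in the APP/PS1-ApoeKO cortex and hippocampus, 81.99% and 76.6% in the APP/PS1 cortex and hippocampus, 78.9% in the C57BL/6-ApoeKO cortex and 78.5% in the C57BL/6 cortex. Rps29 was the member detected in the most cells in every group, in 98.7% to 99.7% of thinned cells.

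The 5 members with the lowest levels were 4 paralogs and Rpl24. Rpl10l, which in mouse serves as a germ-line stand-in for Rpl10, had 0 reads in all 6 groups, which allows at most 0.0124 to 0.0401 RPM for 3 reads. Rpl3l, known as the striated muscle form of Rpl3, had 24 reads in the C57BL/6 cortex, or 0.0814 RPM per kilobase, and 0 in the other 5 groups, where 3 reads would be 0.0151 to 0.0401 RPM. Rpl3 was at 252.9 to 311.2 RPM per kilobase. Rpl6l, annotated as a processed pseudogene, was at 0.0244 to 0.0665 RPM per kilobase, against 216.4 to 269.4 for Rpl6. Rpl24, an essential large subunit gene, was at only 0.406 to 3.04 RPM per kilobase in the 6 groups. It has 4 genes at 95% identity or more, 1 of them identical over the aligned part (100%). Rpl39l, described as a testis form, was at 1.55 to 20.2 RPM per kilobase, against 231.6 to 364.96 for Rpl39.

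Of the paralogs, Rps27l was expressed throughout. It was at 148.1 to 203.8 RPM per kilobase in the 6 groups, against 482 to 673 for Rps27, so the ranges of this pair did not overlap. Rps4l, annotated as a transcribed processed pseudogene with 1 exon (chr6:148354656-148355598, plus strand), was at 22.3 to 60.3 RPM per kilobase, against 328.6 to 516.6 for the X-linked Rps4x.

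Across the 6 groups most members kept a narrow range. For the 74 members with at least 20 RPM, the highest group exceeded the lowest by a median of 1.44-fold, 44 members stayed under 1.5-fold and 71 under 2-fold. The 3 exceptions were Rpl26 at 6.36-fold, Rpl29 at 2.79-fold and Rps4l at 2.70-fold. The APP/PS1 cortex was the highest group for 39 of the 74 members and the lowest for 0. The APP/PS1-ApoeKO hippocampus was the lowest for 40 and the APP/PS1-ApoeKO cortex for 24. These ranges and ranks were not counted over all genes, so whether they are particular to the members is not known.

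Rpl26 was higher in each Apoe knockout group than in its control. It was at 96.8 RPM in the APP/PS1-ApoeKO cortex, against 49.6 RPM in the APP/PS1 cortex. In the hippocampus it was at 85.1 RPM in APP/PS1-ApoeKO cells, against 46.1 RPM in APP/PS1 cells. In the C57BL/6-ApoeKO cortex it was at 122.6 RPM, against 19.3 RPM in the C57BL/6 cortex. The 3 knockout groups lay above all 3 groups with Apoe, and the share of all genes that separate the groups in this way was not counted. The ratios were 1.95 (1.89 to 2.01), 1.84 (1.79 to 1.90) and 6.36 (6.17 to 6.57), and within the 2 lanes that the C57BL/6 groups share the log2 ratio was 2.499 and 2.77. With Apoe present, the APP/PS1 cortex had 2.57 times the Rpl26 level of the C57BL/6 cortex, and in the Apoe knockouts the APP/PS1-ApoeKO cortex had 0.789 times that of the C57BL/6-ApoeKO cortex.

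The reads of Gm15772, the pseudogene that differs from Rpl26 at 2 bases, ran the other way. Gm15772 was at 0.441 RPM in the APP/PS1-ApoeKO cortex, 0.429 RPM in the APP/PS1-ApoeKO hippocampus and 0.876 RPM in the C57BL/6-ApoeKO cortex, against 44.6 and 40.97 RPM in the cortex and hippocampus of APP/PS1 and 52.7 RPM in the C57BL/6 cortex. It had a read in 15.98%, 16.2% and 27.8% of cells of those knockout groups, against 81.03%, 73.99% and 82.5% of cells of the groups with Apoe. In the lanes that both C57BL/6 groups share it was at 0.737 and 1.01 RPM in C57BL/6-ApoeKO cells, against 56.1 and 49.7 RPM in C57BL/6 cells. Added to its near-identical pseudogenes, Rpl26 came to 99.5 RPM in the APP/PS1-ApoeKO cortex, against 95.5 RPM in the APP/PS1 cortex. In the hippocampus the sum was 88.2 RPM in APP/PS1-ApoeKO cells, against 89.1 RPM in APP/PS1 cells, and in the C57BL/6-ApoeKO cortex 125.01 RPM, against 73.9 RPM in the C57BL/6 cortex. The ratios of these sums were 1.04, 0.990 and 1.69, and that of the APP/PS1 cortex to the C57BL/6 cortex was 1.29. The sums of the APP/PS1 pairs were thus close to each other, and the C57BL/6-ApoeKO sum still exceeded the C57BL/6 sum.

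Gm11942 and Gm6472 gave the same contrast for Rplp1 and Rps7. Gm11942 was at 0.134, 0.205 and 0.242 RPM in the APP/PS1-ApoeKO cortex, APP/PS1-ApoeKO hippocampus and C57BL/6-ApoeKO cortex, against 52.6 and 53.9 RPM in the cortex and hippocampus of APP/PS1 and 49.3 RPM in the C57BL/6 cortex. Rplp1 itself was at 329.1, 326.1 and 430.7 RPM in the knockout groups in that order, against 285.6, 267.2 and 248.6 RPM in the groups with Apoe. With their pseudogenes added, the Rplp1 sums were 329.3, 326.3 and 430.95 RPM in the knockout groups, against 338.2, 321.1 and 297.9 RPM with Apoe. Gm6472 was at 0.615, 0.244 and 0.372 RPM in the knockout groups, against 7.86, 7.72 and 8.01 RPM with Apoe. As with Gm15772, no knockout group overlapped a group with Apoe for either pseudogene. Rps7 was at 115.3, 111.5 and 140.6 RPM in the knockout groups, against 103.9, 102.8 and 103.6 RPM with Apoe. Its sums with pseudogenes were 138.2, 121.7 and 152.6 RPM in the knockout groups, against 119.97, 121.4 and 120.8 RPM with Apoe.

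**Figure D2:**
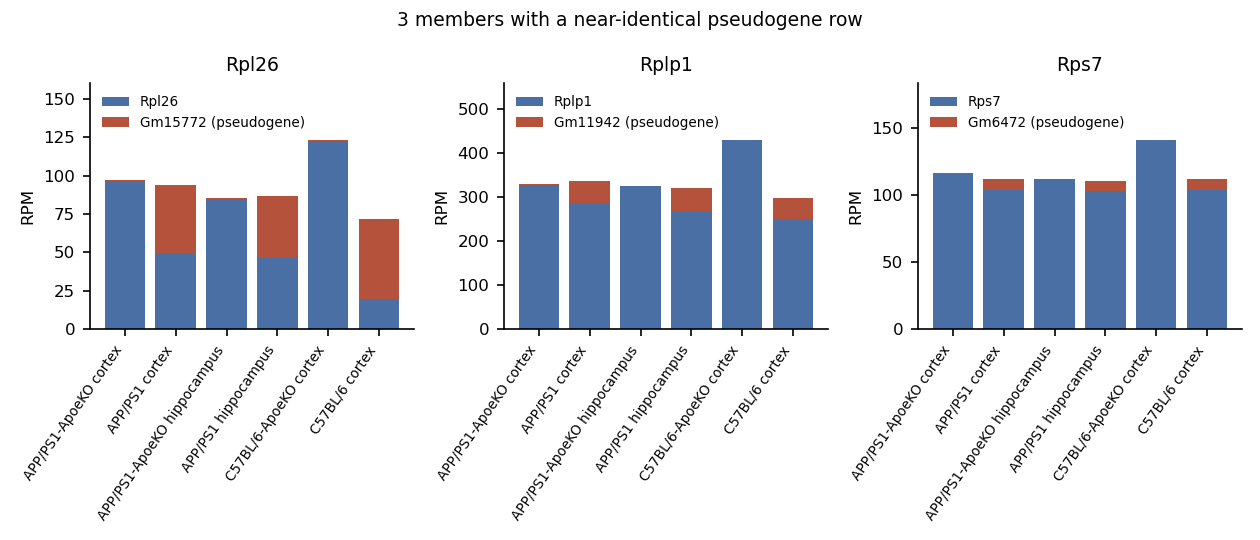
Stacked RPM (y axis) of Rpl26, Rplp1 and Rps7 (blue) and of 1 near-identical pseudogene each (red: Gm15772, Gm11942, Gm6472) in the 6 groups (x axis), each bar 1 sum of cells. The red part is near 0 in the 3 Apoe knockout groups and between 40.97 and 53.9 RPM for Gm15772 and Gm11942 in the 3 groups with Apoe.

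These 3 pseudogenes were picked out after their values were seen. Of the 427 near-identical pseudogenes with an entry in the table, 13 reached 5 RPM in some group, of which 3 were at least 2-fold lower in all 3 knockout comparisons and 0 were at least 2-fold higher in all 3. The share of all genes that pass this rule, or that separate the knockout groups from the others, was not counted. Whether 3 of 13 is unusual is therefore not known. Another case lay outside the name pattern. Rps3a3, a processed pseudogene at chr13:108670603-108671397 with 98.99% identity to Rps3a1, was at 0.147, 0.112 and 0.211 RPM in the APP/PS1-ApoeKO cortex, APP/PS1-ApoeKO hippocampus and C57BL/6-ApoeKO cortex, against 88.3 and 77.9 RPM in the cortex and hippocampus of APP/PS1 and 73.7 RPM in the C57BL/6 cortex. Rps3a1, the small subunit gene it resembles, was at 193.97, 189.5 and 258.2 RPM in the knockout groups, against 70.6, 62.6 and 139.7 RPM with Apoe. The cause of these differences between the knockout groups and the groups with Apoe was not tested.

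The Apoe genotype was tested across genes in sums of cells. In the 4 cortex sums (APP/PS1-ApoeKO, C57BL/6-ApoeKO, APP/PS1 and C57BL/6), edgeR's quasi-likelihood test with Benjamini-Hochberg adjustment over 12775 genes and amyloid as an additive term left 1 residual degree of freedom. Of all genes 0.0313% were called higher and 0.047% lower in the knockouts at an adjusted p under 0.05, and of the 77 members tested 0 were called in either direction. At an unadjusted p under 0.05, 1 of the 77 members was higher, Rpl26, and 0 were lower, against 2.62% higher and 3.08% lower of all genes. In a fit of all 6 sums with tissue as a further term, 0 of the 77 members were called, against 0.0472% of 12703 genes higher and 0.0708% lower. At an unadjusted p under 0.05 that fit had 2 members higher and 11 lower, against 4.64% and 4.57% of all genes. The log2 fold change of Rpl26 in the cortex sums was 1.67 ± 0.49 (SE), with an adjusted p of 0.715 in edgeR's quasi-likelihood test. DESeq2 called Rpl26 alone among the members (1.42% of all genes higher and 1.52% lower), with a log2 fold change of 1.69 ± 0.41 and an adjusted p of 0.0027. At an unadjusted p under 0.05 DESeq2 had 1 member higher and 4 lower, against 5.38% and 5.5% of all genes. The pseudogenes passed edgeR's quasi-likelihood test at log2 fold changes of -6.40 ± 0.50 for Gm15772 (adjusted p 0.0322), -8.21 ± 0.55 for Gm11942 (adjusted p 0.0285) and -8.90 ± 0.47 for Rps3a3 (adjusted p 0.0140). Gm6472, at -4.19 ± 1.15, did not (edgeR's adjusted p 0.677). With no filter on low counts edgeR called 0 of 20925 genes, and the adjusted p of Gm15772 and Gm11942 was 0.455 and that of Rps3a3 0.331, at log2 fold changes of -6.42, -8.22 and -8.92. The 10 genes called in the cortex sums stand beside 14 false calls of the same fit in simulated counts. Over the 77 members the median log2 fold change was -0.29, with 71 below 0, and over all genes it was -0.02.

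Rpl29, a small and very basic large subunit protein, did not follow the Apoe genotype. It was at 34.1 RPM in the APP/PS1-ApoeKO cortex, against 68.7 RPM in the APP/PS1 cortex. In the hippocampus it was at 29.4 RPM in APP/PS1-ApoeKO cells, against 73.4 RPM in APP/PS1 cells. In the C57BL/6-ApoeKO cortex it was at 64.2 RPM, against 26.3 RPM in the C57BL/6 cortex. The knockout was thus lower in both APP/PS1 tissues, at ratios of 0.497 (0.476 to 0.518) and 0.400 (0.386 to 0.414), and higher in the C57BL/6 cortex, at 2.44 (2.37 to 2.51), with log2 ratios of 1.12 and 1.42 in the 2 shared lanes. The APP/PS1 cortex had 2.61 times the Rpl29 level of the C57BL/6 cortex, and the APP/PS1-ApoeKO cortex 0.532 times that of the C57BL/6-ApoeKO cortex. Rpl29 has 28 genes at 95% identity or more, 26 of them pseudogenes, and with the pseudogenes added the 3 knockout ratios were 0.558, 0.464 and 2.17. One of these, Gm8210, was at 2.3004 and 2.62 RPM in the APP/PS1-ApoeKO cortex and hippocampus and 0.0151 RPM in the C57BL/6-ApoeKO cortex, against 0.0159 and 0.0128 RPM in the APP/PS1 cortex and hippocampus and 4.46 RPM in the C57BL/6 cortex. Gm8210 was thus higher in the 3 groups where Rpl29 was low, but at no more than 4.46 RPM. It is 1 of 22 pseudogenes of Rpl29 with an entry in the table and was picked out after its values were seen. In the additive fit Rpl29 had a log2 fold change of -0.01 (edgeR's adjusted p 1).

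Rps4l was at 47.6 RPM in the APP/PS1-ApoeKO cortex, against 20.6 RPM in the APP/PS1 cortex, a ratio of 2.31 (2.20 to 2.42). It was at 24.9 RPM in the APP/PS1-ApoeKO hippocampus, against 17.6 RPM in the APP/PS1 hippocampus, and at 47.2 RPM in the C57BL/6-ApoeKO cortex, against 32.4 RPM in the C57BL/6 cortex. Its reads came from few cells, 14.8%, 11.8% and 17.6% of the knockout groups in that order, against 6.75%, 7.33% and 11.04% of their controls. The labels give each well a plate number, which for 13.8% of the cells differs from the number before the well in the cell's title. These numbers split the wells of 1 sample, so their spread is technical and does not measure the spread between samples. Between the labelled plate numbers the log2 ratio of Rps4l had an SD of 0.14 (2 plate numbers) in the APP/PS1 cortex pair, 1.03 (4) in the hippocampus pair and 1.24 (4) in the C57BL/6 pair. Between the title numbers, a split chosen after seeing the data, it was 0.21, 0.97 and 1.11.

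**Figure D3:**
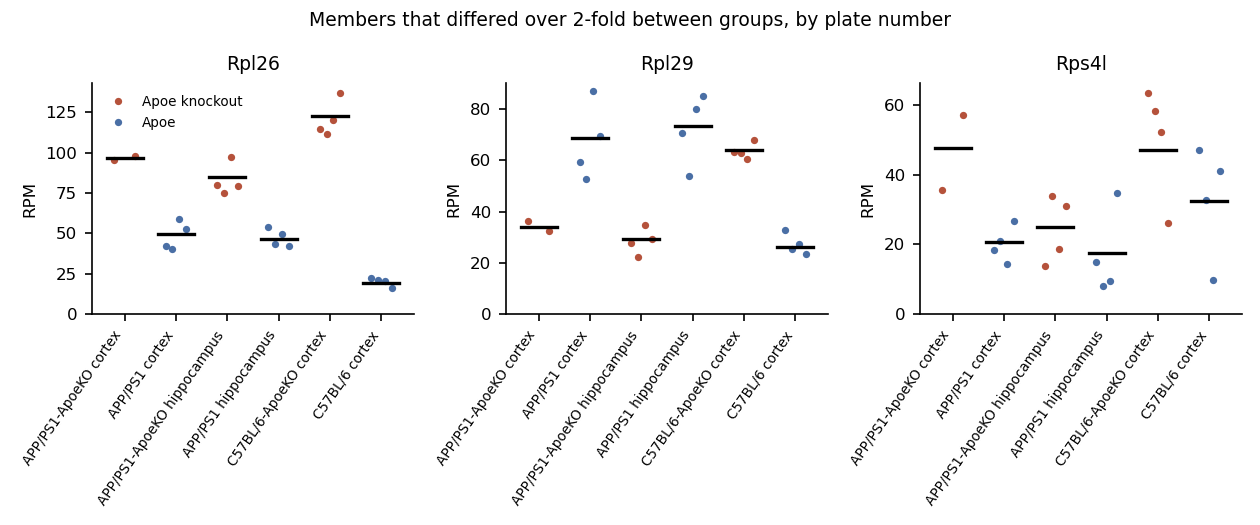
RPM (y axis) of Rpl26, Rpl29 and Rps4l in the 6 groups (x axis), with 1 point per labelled plate number (part of the wells of 1 sample) and a bar at the level of the whole group, Apoe knockout groups in red and groups with Apoe in blue. Rpl26 is highest in the C57BL/6-ApoeKO cortex (122.6 RPM) and lowest in the C57BL/6 cortex (19.3 RPM), and the points of Rps4l scatter widely within groups.

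As a whole the members were slightly lower in the Apoe knockout in both APP/PS1 tissues and near 0 change in C57BL/6. In the APP/PS1-ApoeKO cortex against the APP/PS1 cortex the 74 members had a median log2 ratio of -0.30, with 64 below 0, against a median of 0.21 over all genes with at least 20 RPM in 1 of the 2 groups. At least 1.5-fold higher were 2 members, Rpl26 and Rps4l (26.6% of all genes), and at least 1.5-fold lower were 7 (9.55% of all genes). In the APP/PS1-ApoeKO hippocampus against the APP/PS1 hippocampus the median was -0.24, with 67 below 0 (all genes 0.06). There 1 member, Rpl26, was at least 1.5-fold higher (15.1% of all genes) and 4 were lower (10.6% of all genes). Besides Rpl29, Rps18 of the small subunit was at least 1.5-fold lower in both tissues, a member picked out after its values were seen. In the C57BL/6-ApoeKO cortex against the C57BL/6 cortex the median was 0.06, with 43 above 0 (all genes 0.04), 0.12 and 0.07 in the shared lanes. There 3 members, Rpl26, Rpl29 and Rplp1, were at least 1.5-fold higher (12.1% of all genes) and 0 were lower (9.02%). The SD of the median was 0.089, 0.12 and 0.11 in the 3 comparisons between labelled plate numbers, and 0.12, 0.19 and 0.11 between title numbers. With TMM factors the median in the APP/PS1 cortex pair was -0.54, against -0.04 over all genes. The lanes and ages of the APP/PS1 pairs also differ, so that these cannot be told apart from the genotype. The 3 comparisons share no group.

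The amyloid comparisons use some of the same groups as the knockout ones. In the APP/PS1 cortex against the C57BL/6 cortex the median log2 ratio of the members was 0.10, with 54 of 74 above 0 (all genes -0.11), and 2 members, Rpl26 and Rpl29, were at least 1.5-fold higher (9.53% of all genes) and 1, Rps4l, lower (15.6%). In the APP/PS1-ApoeKO cortex against the C57BL/6-ApoeKO cortex it was -0.24, with 65 of 74 below 0 (all genes 0.07), and 0 members were at least 1.5-fold higher (16.3% of all genes) and 5 lower (10.3%). The SD of these medians was 0.14 and 0.083 between labelled plate numbers, and 0.20 and 0.076 between title numbers. Among cells with 5% to 15% ribosomal RNA reads the second median was -0.0509. In the additive fit of the 4 cortex sums, edgeR's quasi-likelihood test called 0 of 12775 genes for amyloid (0.0% higher and 0.0% lower), 533 at an unadjusted p under 0.05, and DESeq2 called 90 higher (0.705%) and 99 lower (0.775%). Of the 77 members 0 were called by either tool, and 0 were at an unadjusted p under 0.05, against 2.16% higher and 2.01% lower of all genes in edgeR and 4.09% and 4.77% in DESeq2. The median log2 fold change of the members was -0.04.

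Between tissues the members differed little. In the APP/PS1 hippocampus against the APP/PS1 cortex the median log2 ratio was -0.14, with 65 of 74 below 0 (all genes 0.01), and 0 members passed 1.5-fold in either direction (9.81% of all genes higher, 8.02% lower). In the 2 shared lanes it was -0.05 and -0.21. In the APP/PS1-ApoeKO hippocampus against the APP/PS1-ApoeKO cortex it was -0.09, with 49 of 74 below 0 (all genes -0.13), with 0 members at least 1.5-fold higher (9.11% of all genes) and 2, Rpl36a and Rps4l, lower (17.8%). Rps4l was at 24.9 RPM there, against 47.6 RPM. The SD was 0.20 and 0.21 between labelled plate numbers, and 0.22 and 0.18 between title numbers.

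**Figure D4:**
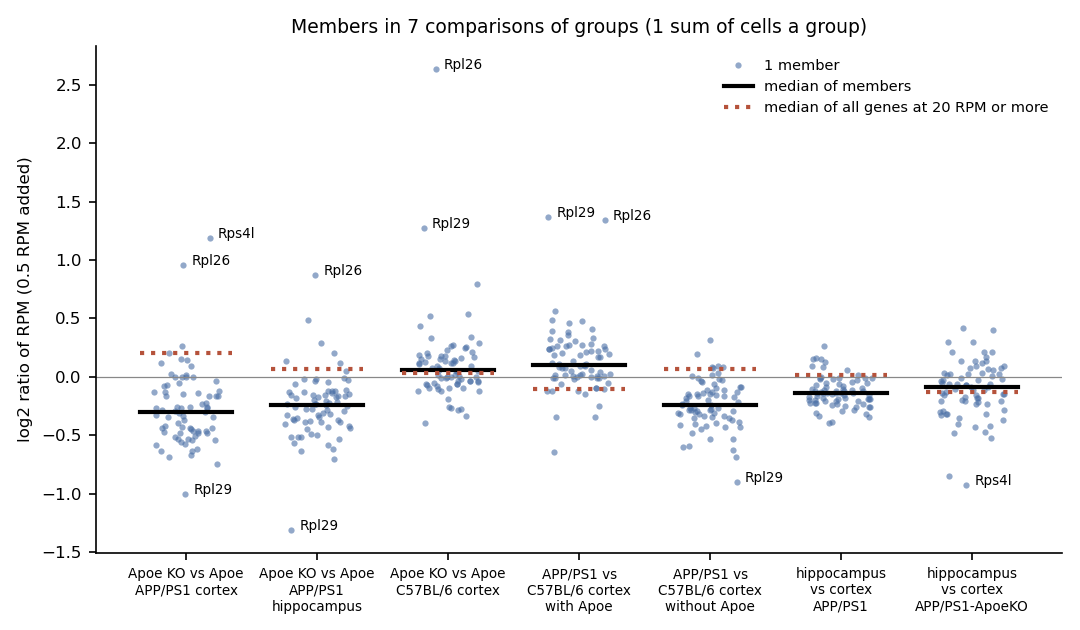
Log2 ratio of RPM, with 0.5 RPM added (y axis), in 7 comparisons of groups (x axis), each with 1 point per member with at least 20 RPM, a black bar at the median of the members and a dotted red bar at the median of all genes. The members' median is lowest for the Apoe knockout in the APP/PS1 cortex (-0.30) and highest for amyloid with Apoe (0.10).

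Cells with Cst7 reads were next compared with cells without within each group. Cst7 reads were found in 25 cells (14.8%) of the APP/PS1-ApoeKO cortex, 38 (11.84%) of the APP/PS1-ApoeKO hippocampus and 39 (12.46%) of the C57BL/6-ApoeKO cortex, and in 81 (26.05%) of the APP/PS1 cortex, 35 (12.8%) of the APP/PS1 hippocampus and 8 (2.45%) of the C57BL/6 cortex. The ribosomal protein share was higher in the cells with Cst7 reads in 5 of the 6 groups. It was 1.28% with Cst7 reads and 0.991% without in the APP/PS1-ApoeKO cortex, and 1.53% and 1.12% in the APP/PS1 cortex. In the hippocampus it was 1.17% with Cst7 reads and 0.981% without in APP/PS1-ApoeKO cells, and 1.68% and 1.05% in APP/PS1 cells. In the C57BL/6 cortex it was 1.499% with and 1.15% without. There 1 of the 8 cells with Cst7 reads had under 5% ribosomal RNA reads and a share of 3.94%. Among C57BL/6 cortex cells with 5% to 15% ribosomal RNA reads the share was 1.26% with Cst7 reads (7 cells) and 1.07% without. The C57BL/6-ApoeKO cortex had the opposite order, 1.08% with and 1.23% without. Median depth was similar, at 454624 to 730653 reads in cells with Cst7 reads and 442604 to 771371 in cells without.

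Most members had ratios above 0 in 5 groups, and most had ratios below 0 in the C57BL/6-ApoeKO cortex. The largest median was in the APP/PS1 hippocampus, where 74 of 74 members were above 0 and the median log2 ratio was 0.66, against -0.34 over all genes. It was 0.45 in the APP/PS1 cortex (72 of 74 above 0, all genes -0.17), 0.31 in the APP/PS1-ApoeKO cortex (60 of 74, all genes -0.08) and 0.22 in the APP/PS1-ApoeKO hippocampus (61 of 73, all genes -0.04). In the C57BL/6 cortex it was 0.36 (60 of 74, all genes -0.27), resting on 8 cells, with 0.49 in 1 lane and -0.06 in the other at 4 cells each. In the C57BL/6-ApoeKO cortex it was -0.16 (18 of 74, all genes -0.02), with -0.40 in 1 lane and 0.001 in the other. In the remaining groups with 2 lanes the median was above 0 in both, at 0.34 and 0.52 in the APP/PS1 cortex, 0.50 and 0.80 in the APP/PS1 hippocampus, and 0.45 and 0.06 in the APP/PS1-ApoeKO hippocampus.

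**Figure D5:**
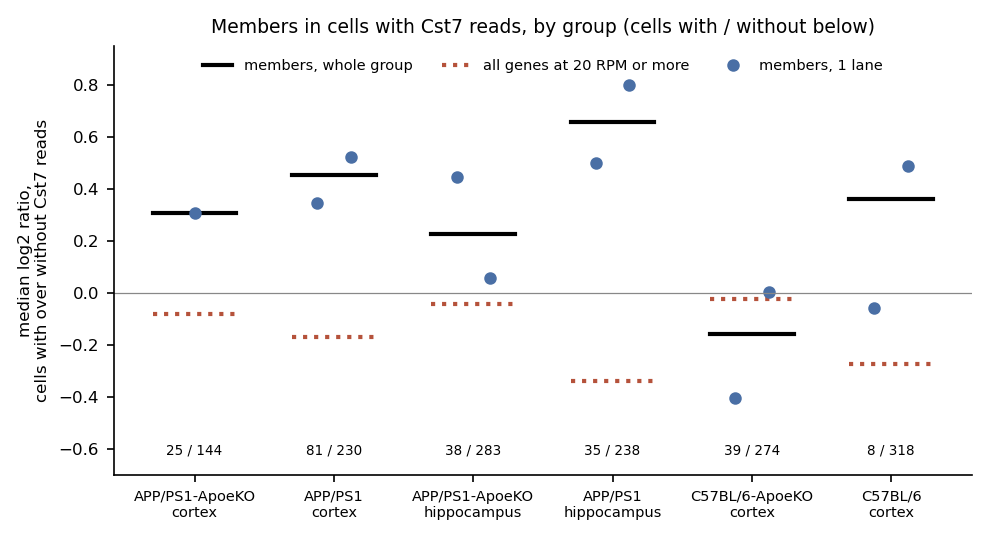
Median log2 ratio of cells with over cells without Cst7 reads (y axis) in the 6 groups (x axis), with a black bar for the members in the whole group, a blue point for the members in each lane and a dotted red bar for all genes, and the numbers of cells with and without Cst7 reads at the bottom. The members lie above all genes in 5 groups and below them in the C57BL/6-ApoeKO cortex.

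No single member passed the test over groups. With 12 sums (2 in each of 6 groups, the group as block), edgeR's quasi-likelihood test with Benjamini-Hochberg adjustment over 12543 genes called 1 gene higher (0.00797%) and 0 lower (0.0%) in cells with Cst7 reads. The gene was H2-D1, which encodes an MHC class I chain, at a log2 fold change of 0.93 ± 0.09 (SE) and an adjusted p of 0.0306 in that edgeR test. Each of the 6 fits without 1 group called 0 genes, and so did the fits without the block, with the ribosomal RNA covariate and in cells with 5% to 15% ribosomal RNA reads, so the call of H2-D1 was lost there. Of the 77 members 0 were called. At an unadjusted p under 0.05, 23 of the 77 were higher and 0 lower, against 1.58% higher and 7.08% lower of all genes. The median log2 fold change of the members was 0.41, with 74 of 77 above 0, and that of all genes -0.60. DESeq2 called 11 of the 77 members higher and 0 lower, with 160 higher (1.28%) and 998 lower (7.96%) over all genes. At an unadjusted p under 0.05 DESeq2 had 44 members higher and 0 lower, against 3.24% and 19.2% of all genes. The 11 were Rps16, Rps19, Rps27a, Rpl4, Rpl9, Rpl14, Rpl19, Rpl21, Rpl23, Rplp0 and Rplp1, with DESeq2 adjusted p-values between 0.00887 and 0.0464. The edgeR test of this comparison was tried on simulated counts with these library sizes and 12543 genes. Of the genes made to differ it found 1 of 50 at 2-fold and 10 of 50 at 4-fold, with 2 false calls.

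The largest estimate was that of Rpl14, a large subunit protein. It was at 183.3, 170.4 and 171.2 RPM in cells with Cst7 reads of the APP/PS1-ApoeKO cortex, APP/PS1 cortex and APP/PS1-ApoeKO hippocampus, against 152.99, 135.7 and 120.3 RPM in cells without. In the APP/PS1 hippocampus, C57BL/6-ApoeKO cortex and C57BL/6 cortex it was at 292.6, 159.1 and 321.4 RPM in cells with Cst7 reads, against 129.03, 148.3 and 130.1 RPM in cells without. It was higher in cells with Cst7 reads in 6 of 6 groups. Its log2 fold change was 0.71 ± 0.22 (SE), with an adjusted p of 0.478 in edgeR's quasi-likelihood test.

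Rplp0, the scaffold of the P stalk, was at 626, 639 and 520 RPM in cells with Cst7 reads of the APP/PS1-ApoeKO cortex, APP/PS1 cortex and APP/PS1-ApoeKO hippocampus, against 433, 385 and 404 RPM in cells without. In the APP/PS1 hippocampus and C57BL/6 cortex it was at 612 and 870 RPM with, against 342.8 and 460 RPM without. In the C57BL/6-ApoeKO cortex it was at 362.99 RPM with, against 474 RPM without. Rplp0 was thus higher in cells with Cst7 reads in 5 of 6 groups, as was the summed share. The log2 fold change was 0.61 ± 0.19, against 0.67 ± 0.20 for Rpl23, 0.66 ± 0.23 for Rps16 and 0.60 ± 0.19 for Rpl9, each with an adjusted p of 0.478 in edgeR's quasi-likelihood test.

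At the other end stood members with few reads or little difference. Rpl8, whose protein lies at the peptidyl transferase center, had a log2 fold change of 0.04 ± 0.24. In the C57BL/6 cortex Rpl8 was at 141.9 RPM with Cst7 reads, against 300.5 RPM without. In the APP/PS1 cortex it was at 320.2 RPM with, against 271.7 RPM without. The estimates of Rps4l (-0.17 ± 1.14), Rpl13a (-0.69 ± 1.34) and Rpl39l (-1.60 ± 2.76) had errors larger than themselves.

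The lists of genes that work with the ribosome had median estimates of either sign. The 6 genes in the elongation factor list all had estimates above 0. Their median log2 fold change was 0.51, with 3 at an unadjusted p under 0.05 and 0 called. Among these Eef1b2 had 0.71 ± 0.17, Eef1a1 0.55 ± 0.15 and Eef2 0.48 ± 0.17, with adjusted p-values of 0.445, 0.478 and 0.478 in edgeR's quasi-likelihood test. The 8 tested ribosomal protein genes outside the name pattern had a median of 0.45, with 4 at an unadjusted p under 0.05, among them Rpsa at 0.62 ± 0.18, Rack1 at 0.61 ± 0.15 and Fau at 0.55 ± 0.19, and 0 called. The 29 initiation factors had a median of -0.01 and the 8 other TOP mRNAs, such as Npm1 at 0.42 ± 0.25 and Tpt1 at 0.37 ± 0.19, a median of 0.23, with 0 called in each list. The 26 ribosome assembly genes had a median of -0.45 (20 below 0), the 76 mitochondrial ribosomal protein genes -0.38 (64 below 0) and the 12 genes of mTORC1 and TOP control -0.11, again with 0 called. All 3 medians lay above the -0.60 of all genes, so the counts below 0 do not set these lists below all genes in this fit. The median of all genes depended on the fit, at -0.06 without the group as block and -1.05 with no filter on low counts. List medians are not given for those fits. Some estimates in the assembly list had large errors, such as Rrs1 at -3.98 ± 1.78 and Polr1b at -2.99 ± 2.60. With the log2 ribosomal RNA share of each sum as a covariate, the median was 0.32 for the elongation factors, 0.13 for the ribosomal protein genes outside the pattern and -0.06 for the other TOP mRNAs. The lists thus had different medians beside the -0.60 of all genes, and no difference between lists was tested.

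Markers of microglial state and ribosomal RNA reads were also compared between the classes. Of the 19 activation markers tested besides Cst7, 19 had estimates above 0, 10 at an unadjusted p under 0.05 and 0 called, with a median log2 fold change of 0.92. Clec7a, a lectin receptor, had 2.77 ± 0.33 (edgeR's adjusted p 0.0689). The 19 activation markers other than Cst7, Apoe among them, summed to 97148 RPM in cells with Cst7 reads of the APP/PS1 hippocampus, against 27123.5 RPM without. They summed in the C57BL/6-ApoeKO cortex to 28877 RPM with, against 21672 RPM without, and were higher with Cst7 reads in all 6 groups. The 10 homeostatic markers had a median log2 fold change of -0.20, with 4 lower at an unadjusted p under 0.05 and 0 called. The median ribosomal RNA share was 6.99%, 12.9% and 9.81% in cells with Cst7 reads of the APP/PS1-ApoeKO cortex, APP/PS1 cortex and APP/PS1-ApoeKO hippocampus, against 6.16%, 11.5% and 9.44% without. It was 12.01%, 8.71% and 8.69% in cells with Cst7 reads of the APP/PS1 hippocampus, C57BL/6-ApoeKO cortex and C57BL/6 cortex, against 10.9%, 8.61% and 8.39% without. Over the summed reads the share was higher with Cst7 reads in 5 groups, and in the C57BL/6-ApoeKO cortex it was 8.60% with and 8.80% without.

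Other marker lists differed in part between the classes. Ighm had a log2 fold change of 0.35 ± 0.10 (edgeR's adjusted p 0.478), and the B cell list summed to 371.2 to 859 RPM in cells with Cst7 reads, against 392.9 to 612.9 RPM without. Of the 8 cell cycle genes 7 had estimates below 0, 2 of them at an unadjusted p under 0.05, which were Mki67 at -8.41 ± 3.04 and Top2a at -5.54 ± 2.38, with 0 called. Their part in the ribosomal protein differences was not tested.

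With the log2 ribosomal RNA share of each sum as a covariate, the members' median log2 fold change was 0.01, with 40 of 77 above 0 and 0 at an unadjusted p under 0.05. The median over all genes in that fit was -0.74. In cells with a ribosomal RNA share between 5% and 15% the members' median was 0.34, with 73 of 77 above 0 and 12 at an unadjusted p under 0.05, against 0.41 and 23 in all cells. All genes had a median of -0.69 there and -0.60 in the fit of all cells. The part of ribosomal RNA in the estimates was not tested beyond these 2 fits. Without the C57BL/6-ApoeKO cortex the members' median was 0.50, with 37 of 77 at an unadjusted p under 0.05 and 0 called.

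The departure of the C57BL/6-ApoeKO cortex from the other 5 groups was tested as an interaction, chosen after the values were seen. The members' median interaction was -0.65 on the log2 scale, with 74 of 77 below 0, against 0.31 over all genes. In edgeR's quasi-likelihood test 3 of the 77 members were at an unadjusted p under 0.05, and 0 of 12543 genes were called, with 1.58% at an unadjusted p under 0.05.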

How the data were processed

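The authors deposited whole-number read counts per gene and cell, of which all 1878 cell columns matched a labelled well. Seurat 2.3.1, the build mm10, STAR 2.5.2 and featureCounts 1.5.1 are named, per the submitters' processing notes, without roles. The annotation, the use of strand and the treatment of reads that fit several genes are not stated in the sources used here. Cells whose labels give a read total were used (1713), and 165 further APP/PS1-ApoeKO cortex cells entered an alternative. The members, gene lists and comparisons were chosen with earlier results of these data known.

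Counts were summed per group, and in tests per group and Cst7 class, and tested with edgeR 4.0.16 in R 4.3.3 (TMM, quasi-likelihood F test, Benjamini-Hochberg over all genes with at least 1 RPM on average, threshold 0.05). DESeq2 1.42.0 was an alternative. Ratios used genes with at least 20 RPM in 1 of the groups and 0.5 RPM added before the log2; calls were at 1.5-fold. Fits were tested on simulated data: for the Apoe term in cortex, 6 of 50 genes were recovered at 2-fold and 28 of 50 at 4-fold, with 14 false calls among 12775 genes. Named members are the 8 highest and 5 lowest per kilobase, those past 2-fold between groups, the 5 largest and 5 smallest Cst7 estimates and the paralogs; 1 of them is not reported here. Near-identical genes were found with BLAST+ 2.17.0.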

Additional observations from a re-analysis of the deposited data

Results flagged for a closer look

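The members' median log2 ratio of cells with to cells without Cst7 reads was -0.16 in the C57BL/6-ApoeKO cortex and above 0 in the other 5 groups. It was picked out because this group moved the opposite way; 56 of its 74 members were below 0, the lane medians were -0.40 and 0.001, and edgeR's test of the difference itself called 0 of 77 members.

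Rpl29 was picked out because its Apoe knockout ratios had opposite signs. The log2 ratio was -0.999 in the APP/PS1 cortex, -1.31 in the APP/PS1 hippocampus and 1.27 in the C57BL/6 cortex. Each group is 1 sample, so this difference was not tested.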

How the results depend on the processing

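Across the alternatives, edgeR called 0 members for Cst7, the Apoe genotype and amyloid, and DESeq2 called 11 members higher for Cst7, 1 higher for the Apoe genotype and 0 for amyloid. Leaving out each group in turn, the members' median Cst7 log2 fold change lay between 0.31 and 0.50, and the numbers at an unadjusted p under 0.05 between 8 and 37. Without the group as block, so without the pairing of both classes of a group (no replicate block), it was 0.46 with 0 called and 32 at an unadjusted p under 0.05. The median of all genes moved more, from -0.60 to -0.06 without the block, -0.36 without the C57BL/6 cortex and -1.05 with no filter on low counts. The members' median moved from 0.41 to 0.46, 0.43 and 0.33 in these fits. The sign of small Cst7 estimates changed in the following fits, and the cause was not tested. Rpl8 was -0.51 with the ribosomal RNA share as covariate, -0.0347 with no filter, -0.0187 in thinned cells and between -0.0681 and 0.261 leaving out each group, below 0 when any 1 of 4 groups was left out. Rps4l was 0.0420 and Rpl39l 0.63 without the block. Leaving out each group, Rps4l lay between -0.545 and 0.44, the highest without the C57BL/6 cortex (also the fit with at least 20 cells of each class), and was 0.02 without the APP/PS1-ApoeKO cortex. Rpl29 for the Apoe genotype was 0.0108 with RLE factors and 0.0104 with DESeq2.

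For the Apoe knockout in the APP/PS1 cortex the members' median log2 ratio was -0.21 in cells without Cst7 reads, -0.39 over reads outside 4 ribosomal RNA entries (chosen after seeing the data) and -0.54 with TMM factors, which moved the median of all genes to -0.04. Leaving out each APP/PS1 lane in turn, it lay between -0.37 and -0.20. For amyloid without Apoe it was -0.38 with each cell weighted alike, -0.0509 in cells with 5% to 15% ribosomal RNA and -0.32 with TMM factors. TMM moved the median of all genes to -0.00 for amyloid with Apoe and to 0.03 between the tissues of the knockout. In the other comparisons it moved by less than 0.1. Adding pseudogenes (chosen after seeing the data) gave log2 ratios of 0.75 for Rpl26 in the C57BL/6 pair, 0.37 for amyloid with Apoe, and -1.10 for Rpl29 in the hippocampus. No paired analysis was possible for the comparisons between groups because each group is 1 sum. Depth limits the lowest members: 3 reads correspond to 0.0124 to 0.0401 RPM.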
